A study of Mus musculus with 8 samples.

Results

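The long intergenic non-coding RNAs that are well measured in the embryonic mouse molar are described here. They are the genes with the biotype lincRNA in GENCODE M21, on GRCm38, that have at least 200 read counts in each of 8 embryos, leaving out genes on the X and Y chromosomes and the imprinted genes H19, Meg3, Rian and Mirg. This rule kept 29 of the 2777 lincRNA genes in the count tables, which list 43629 genes in all. Of the 2777, 1485 had no count in any embryo, and 32 passed the count limit before Ftx, Meg3 and H19 were left out. The members were thus chosen by their counts in these same 8 embryos, and their levels are given as a description. Just inside the limit were Mir17hg (lowest count 213), C920006O11Rik (214) and 5430416N02Rik (222). Just outside it were 2610035D17Rik (190), AI504432 (179) and Gm26825 (178).

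RNA of the lower first molars was sequenced at E18.5 from 4 control embryos with the genotype Jagged1 fl/fl (J3, J5, J6 and J7) and 4 mutant embryos with the genotype K14Cre;Jagged1 fl/fl (K14J26, K14J28, K14J29 and K14J30). These genotypes are those of the sample labels, whereas the study's methods call the controls WT littermates. By the labels both groups carry floxed alleles of Jagged1, a ligand of the Notch receptors, and Cre, driven by the promoter of keratin 14, is present in the mutants alone. That promoter is active in epithelium, while the sample holds the whole tooth germ, with its mesenchyme, and each sample pools the molars of both sides of 1 embryo. In such bulk samples fewer cells of a type and less RNA per cell cannot be told apart.

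The libraries held between 17327224 and 29792467 counts on genes. Jag1 had 95.2 to 104 CPM (counts scaled to the normalized library size) in the controls and 34.0 to 57.1 CPM in the mutants, with no overlap, and its log2 fold change was -1.19 (SE 0.14, adjusted p = 0.00517). Mutant K14J26 stood apart, with 9.57% of its counts on the enamel genes Amelx, Ambn and Enam, against 0.0559% to 2.47% in the other embryos. Mutant K14J28 stood apart in osteoclast genes, with 807 CPM of Ctsk and 454 CPM of Acp5, against 106 to 252 and 65.3 to 158 CPM elsewhere. Xist was high in K14J28 and K14J29 (1930 and 1468 CPM), while no other embryo exceeded 1.09 CPM. The muscle gene Acta1 reached 131 CPM in J6 and 52.7 CPM in J7, and stayed at or under 5.65 CPM elsewhere. Of the 17129 genes tested, 9.52% were called higher and 6.61% lower in the mutants at an adjusted p under 0.05.

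Long intergenic non-coding RNAs are transcripts without a recognized protein product that are made from genes of their own between protein-coding genes. Some work as RNA in the nucleus. Malat1 gathers in nuclear speckles, where splicing factors are stored, and Neat1 is the scaffold of the paraspeckle, a nuclear body that holds RNA-binding proteins. Others are mainly carriers: their transcripts are cut to release microRNAs, or their introns hold small nucleolar RNAs (snoRNAs), which guide the chemical modification of ribosomal and spliceosomal RNA.

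The microRNAs of 4 members are shown first, because 2 of the 8 members that differed between the groups, Mir17hg and 4631405K08Rik, are microRNA host genes. Those of the hosts 2900076A07Rik and Snhg20 are not shown. Sequences are those of RefSeq on GRCm38.p6, 5′ to 3′, with the seed (bases 2 to 8), which pairs with target messages, in capitals. Mir17hg, on chromosome 14 from 115042879 to 115046727 (plus strand), spans the 6 microRNAs of the miR-17 cluster. These fall into 4 seed groups, miR-17 with miR-20a, miR-18a, miR-19a with miR-19b, and miR-92a:
miR-17-5p: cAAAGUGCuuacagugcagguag
miR-20a-5p: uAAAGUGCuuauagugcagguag
miR-18a-5p: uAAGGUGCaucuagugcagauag
miR-19a-3p: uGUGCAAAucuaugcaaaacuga
miR-19b-3p: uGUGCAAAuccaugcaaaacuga
miR-92a-3p: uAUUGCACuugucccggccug

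4631405K08Rik, which RefSeq names Mir205hg, lies on chromosome 1 from 193507238 to 193510174 (minus strand) and holds miR-205, a microRNA known for its high level in epithelia. A430106G13Rik, on chromosome 1 from 137966531 to 137969918 (plus strand), holds miR-181b. Each has a seed found in no other microRNA shown:
miR-205-5p: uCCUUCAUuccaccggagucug
miR-181b-5p: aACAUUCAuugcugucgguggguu

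6720427I07Rik, on chromosome 13 from 48532905 to 48546500 (minus strand), holds 3 let-7 microRNAs, known for their rise as tissues mature, which share 1 seed:
let-7a-5p: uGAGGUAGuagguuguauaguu
let-7f-5p: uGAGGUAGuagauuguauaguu
let-7d-5p: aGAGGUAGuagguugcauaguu

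The tables count reads on the host genes, and no mature microRNA was measured.

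Promoters were taken as 250 bases before to 50 bases after the start that RefSeq gives, and 16 of the 29 members had an entry. Those of 4 members that differed between the groups follow, on the strand of the gene, with matches to 6 short motifs in capitals. The promoters of Malat1 (chr19:5802623-5802922) and 4631405K08Rik (chr1:193510161-193510460), both on the minus strand, belong to members that were higher in the mutants. Those of C920006O11Rik (chr9:78175664-78175963) and Fam120aos (chr13:48967862-48968161), both on the plus strand, belong to members that were lower:
Malat1: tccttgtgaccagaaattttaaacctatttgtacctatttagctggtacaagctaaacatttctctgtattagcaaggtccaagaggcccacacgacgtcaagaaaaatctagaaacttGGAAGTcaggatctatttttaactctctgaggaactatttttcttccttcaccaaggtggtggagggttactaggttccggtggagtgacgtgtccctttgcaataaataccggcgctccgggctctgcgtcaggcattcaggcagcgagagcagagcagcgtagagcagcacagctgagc
4631405K08Rik: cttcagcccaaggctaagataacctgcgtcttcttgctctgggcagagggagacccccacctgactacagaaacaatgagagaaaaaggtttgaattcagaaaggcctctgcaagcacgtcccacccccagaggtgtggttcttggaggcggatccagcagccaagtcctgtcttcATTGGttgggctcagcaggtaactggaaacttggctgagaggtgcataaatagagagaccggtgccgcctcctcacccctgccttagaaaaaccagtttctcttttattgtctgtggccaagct
C920006O11Rik: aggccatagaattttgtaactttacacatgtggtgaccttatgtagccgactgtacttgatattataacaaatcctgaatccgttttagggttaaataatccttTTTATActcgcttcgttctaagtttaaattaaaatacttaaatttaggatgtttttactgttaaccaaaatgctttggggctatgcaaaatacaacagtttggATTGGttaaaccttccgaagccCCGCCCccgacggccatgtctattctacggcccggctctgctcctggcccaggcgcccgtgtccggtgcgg
Fam120aos: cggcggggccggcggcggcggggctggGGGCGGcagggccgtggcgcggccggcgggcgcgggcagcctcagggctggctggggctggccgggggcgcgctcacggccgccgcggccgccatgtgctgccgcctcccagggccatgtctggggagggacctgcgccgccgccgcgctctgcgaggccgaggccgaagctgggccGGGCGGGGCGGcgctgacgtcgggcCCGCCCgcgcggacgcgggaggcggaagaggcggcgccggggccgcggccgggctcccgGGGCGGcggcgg

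The motifs, searched on both strands, were GTGGGAA (the core site of RBPJ, the DNA-binding partner of Notch), the E-box CACGTG, the Sp factor site GGGCGG, the CCAAT box, the TATA box in the form TATAAA, and an Ets factor site, GGAAGT. The RBPJ site and the E-box were in 0 of the 16 member promoters, against 6.38% and 7.15% of all 32851 promoters of this length. The Sp factor site was in 7 (35.7% of all promoters), the CCAAT box in 7 (37.4%), the Ets factor site in 7 (23.8%) and the TATA box in 1 (13.6%). The entry of Mir17hg, which is not shown, starts 1511 bases after the start that GENCODE gives, inside the gene, and those of Tmem250-ps, 5031425E22Rik and Snhg20 start 978, 933 and 775 bases after it. Without Mir17hg each motif was in the same number of promoters, of 15. Matches and their absence describe these letters in this window and nothing beyond. The window of Fam120aos was 86.7% G and C with 54 CpG, and that of C920006O11Rik 43.0% with 14 CpG. The median over the 16 was 19 CpG, against 7 over all promoters.

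The members lie on 16 chromosomes and vary widely in build. Exonic length ran from 384 bases (Gm10076) to 20771 bases (Neat1) with a median of 2795, and 9 members have a single exon block. RefSeq gives 17 of them as long non-coding RNA, 3 as protein-coding (1810058I24Rik, Tmem250-ps and D930016D06Rik, there named Thoc2l) and 2 as pseudogenes (Gm42418 and Gm10076), while 7 had no RefSeq match. Gm42418 shares 99.5% of its exonic bases with an annotated ribosomal RNA gene on the opposite strand, and Gm10076 is 99.5% identical over 383 bases to Rpl41, a ribosomal protein gene. Exons of 18 members overlap no exon of another gene. Because the library kit does not mark strand, reads of the other 11 cannot be told apart from those of their partners where they overlap.

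The level per length, in CPM per kb of exon, covered more than 2 orders of magnitude. Gm42418, the ribosomal RNA-like gene, was highest with 494 CPM per kb in the controls and 481 in the mutants. Malat1 followed with 94.8 and 149 CPM per kb, then Snhg18, a snoRNA host, with 43.5 and 56.1. Gm10076 (34.7 and 33.9), Tmem250-ps (33.6 and 32.3), Epb41l4aos (27.8 and 24), Snhg6 (24.2 and 21.4) and 1810058I24Rik (22.7 and 20.6) made up the rest of the 8 highest. These neighbours lie close, and the embryos' values of Gm10076 and Tmem250-ps interleave. The lowest member per length was Gm20342, with 1.34 and 1.88 CPM per kb. Neat1, the longest, ranked 13 of 29.

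**Figure D1:**
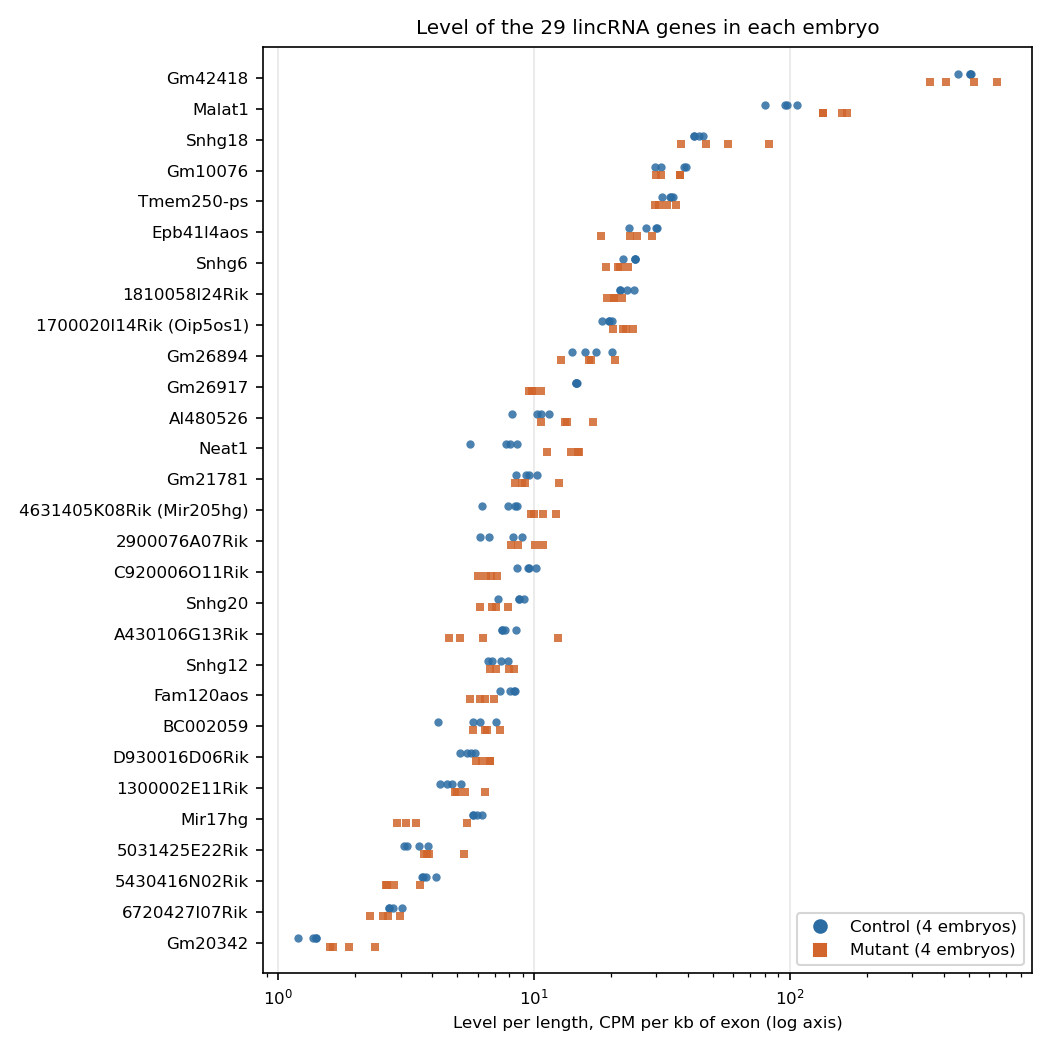
Level of each of the 29 lincRNA genes, in CPM per kb of exon on a log axis, with 1 circle per control embryo and 1 square per mutant embryo. Gm42418 and Malat1 are the highest; for Neat1 and Malat1 the 4 mutant squares lie to the right of the 4 control circles, and for Gm26917 to the left of them.

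All members together took 0.251% to 0.277% of the counts in the controls and 0.268% to 0.340% in the mutants, so the groups overlapped. Without Malat1, Neat1 and Gm42418 the share was 0.0836% to 0.0929% in the controls and 0.0847% to 0.0861% in the mutants.

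To ask whether the epithelial deletion of Jagged1 changes these RNAs, the groups were compared gene by gene in the fit over all 17129 genes. Of the 29 members, 4 were higher in the mutants (Neat1, Malat1, 4631405K08Rik and Gm20342) and 4 were lower (Gm26917, C920006O11Rik, Fam120aos and Mir17hg), while 21 did not pass the test. DESeq2 called these 8 and 3 more, 1700020I14Rik and AI480526 higher and 5430416N02Rik lower, while of all genes it called 2244 higher (13.1%) and 1718 lower (10%), or 23.2% in either direction. Without the muscle-rich controls J6 and J7, edgeR called 0 members in either direction (4 higher and 5 lower at an unadjusted p under 0.05, where 12% and 8.89% of all genes were), and of all genes 3 higher (0.0178%) and 4 lower (0.0237%), or 0.0415% together. The log2 fold changes of the 8 kept their sign there, at 0.72 for Neat1, 0.76 for Malat1, -0.55 for Gm26917, -0.58 for C920006O11Rik and -0.71 for Mir17hg, with 0.32 for 4631405K08Rik, 0.41 for Gm20342 and -0.33 for Fam120aos. Among all genes tested, 16.1% were called in either direction, and among autosomal protein-coding genes with 200 counts in every embryo 20.3% were (12.2% higher, 8.03% lower). Of 73 other autosomal non-coding transcripts at that level, such as antisense genes, 13.7% were called (4.11% higher, 9.59% lower). The median log2 fold change of the members was -0.02 and that of all genes 0.01, and the median size without sign was 0.21 for the members, 0.22 for all genes and 0.17 for the protein-coding genes of that level. With the study's criteria in place of the adjusted p (raw p not above 0.05 and a fold change limit of 0.5, read here as the size of the log2 fold change because the methods do not name its scale), 2 members were higher and 3 lower, against 8.33% and 5.85% of all genes. The 8 values did not overlap between the groups in 11 members, 6 with the mutants above (12.6% of all genes) and 5 with the mutants below (11.6%). These include the 8 called members and 1700020I14Rik, D930016D06Rik and 5430416N02Rik.

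**Figure D2:**
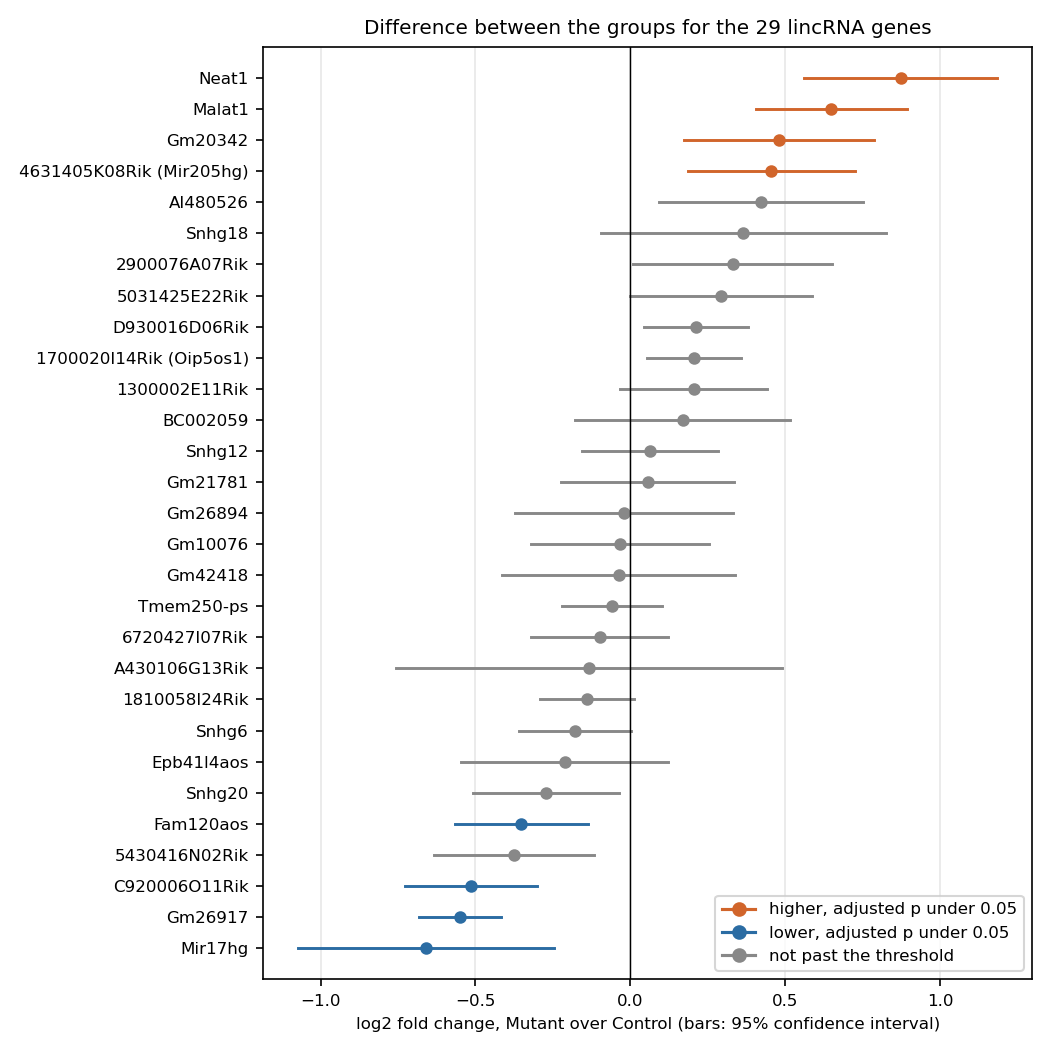
Log2 fold change of each member, mutant over control, with its 95% confidence interval as a bar. Orange marks the 4 members higher and blue the 4 lower at an adjusted p under 0.05; the estimates run from -0.66 (Mir17hg) to 0.87 (Neat1).

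The 2 nuclear RNAs were the members with the largest increases. Neat1 (chromosome 19, 5824708 to 5845478, minus strand) had 178, 168, 161 and 117 CPM in controls J3, J5, J6 and J7, and 311, 234, 289 and 307 CPM in mutants K14J26, K14J28, K14J29 and K14J30. Every mutant was above every control, K14J28 was the lowest mutant and J7 the lowest control. The means were 156 ± 26.9 and 285 ± 35.7 CPM (SD, n = 4 each), a 1.83-fold difference with a log2 fold change of 0.87 (SE 0.14, adjusted p = 0.00977). Malat1 (chromosome 19, 5795690 to 5802672, minus strand) had 667, 558, 743 and 679 CPM in the controls and 1110, 936, 1169 and 935 CPM in the mutants. Again the groups did not overlap, and its log2 fold change was 0.65 (SE 0.11, adjusted p = 0.0108). Both calls held when any 1 embryo was left out, with log2 fold changes of 0.75 to 0.95 for Neat1 and 0.56 to 0.70 for Malat1. Stretches of Malat1 of at least 100 bases are at least 95% identical to transcripts of 190 other genes, so its count may hold reads of repeats.

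Malat1 and Neat1 are neighbours, 22035 bases apart on the same strand. In the 100000 bases on each side of the pair, 19 genes were tested, a window chosen after the values of both had been seen. At an unadjusted p under 0.05 in edgeR's test, 10 genes in it were higher and 0 lower, against 19.1% and 15.7% of all genes. DESeq2 called 10 higher and 0 lower, against 13.1% and 10% of all genes. Against 9.52% and 6.61% of all genes, edgeR called 8 genes in the window higher and 0 lower at an adjusted p under 0.05. Beside both members these were 5 annotated transcripts that lie inside them and overlap their exons, so that reads there may belong to either (Gm27694, Gm37376, Gm27533, Gm27505 and Gm28006) and, of 12 protein-coding genes, 1. This was Frmd8, whose product binds the iRhom proteins, with a log2 fold change of 0.26 (SE 0.07, adjusted p = 0.0376). Ltbp3, whose product binds latent TGF-beta, had a larger log2 fold change of 0.75 (SE 0.23) that did not pass (adjusted p = 0.0531), with means of 191 and 321 CPM, and Slc25a45, a mitochondrial carrier gene, had 0.41 (SE 0.13, adjusted p = 0.0583).

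Proteins of the paraspeckle, which bind Neat1, were measured as messages. Of 11 listed genes 0 were called higher and 5 lower (Sfpq, Pspc1, Hnrnpk, Matr3 and Hnrnph3), with a median log2 fold change of -0.20, against 0.01 over all genes. Of all genes edgeR called 9.52% higher and 6.61% lower. At an unadjusted p under 0.05, 0 of the 11 were higher and 6 lower in edgeR's test, against 19.1% and 15.7% of all genes. DESeq2 called 0 higher and 5 lower, against 13.1% and 10% of all genes. Sfpq, an RNA-binding protein needed to form the body, had 568 to 633 CPM in the controls and 431 to 507 CPM in the mutants, with a log2 fold change of -0.35 (SE 0.07, adjusted p = 0.0171). Pspc1, its partner, had 70.6 to 82.3 and 49.8 to 60.2 CPM, with a log2 fold change of -0.46 (SE 0.08, adjusted p = 0.0134). Nono, the third of that family, had 442 to 505 and 348 to 452 CPM, overlapping, with an adjusted p of 0.155.

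4631405K08Rik (Mir205hg), the host of miR-205, had 18.1, 17.8, 16.7 and 13.2 CPM in the controls and 25.7, 21.1, 20.4 and 22.9 CPM in the mutants. All mutants were above all controls, with K14J26 highest and J7 lowest. The means were 16.4 ± 2.25 and 22.5 ± 2.37 CPM (SD, n = 4 each), with a log2 fold change of 0.46 (SE 0.12, adjusted p = 0.0349). The call was lost without any of J3, J5, J6, J7, K14J29 or K14J30 (adjusted p 0.0644 to 0.0801) and kept without K14J26 or K14J28. Markers of epithelium did not all move the same way. Summed over Krt14, Krt5, Shh and Epcam, the level was 3859 to 4446 CPM in the controls and 4674 to 6855 CPM in the mutants. None of the 4 was at 0, and 1 of 4, Krt14, was called higher (9.52% of all genes were). Krt5 made up most of the sum, with 2648 to 3013 CPM in the controls and 2980 to 4099 CPM in the mutants. Epcam, an adhesion protein of epithelial cells, went the other way, with 218 to 255 CPM in the controls and 113 to 195 CPM in the mutants, no overlap, and a log2 fold change of -0.51 (SE 0.16, adjusted p = 0.0527). Their part in the difference was not tested. Of 6 dental mesenchyme markers 5 were lower and 0 higher, by edgeR, by DESeq2 and at an unadjusted p under 0.05. Of all genes, 6.61%, 10% and 15.7% were lower and 9.52%, 13.1% and 19.1% higher, in that order. The sums of these markers were 1259 to 1400 CPM in the controls and 1061 to 1237 CPM in the mutants.

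Gm20342 (chromosome 1, 63117118 to 63126837, plus strand), a single-exon gene of no known role that starts 2451 bases from the chromatin remodelling gene Ino80d, had 13.7, 13.6, 11.6 and 13.3 CPM in the controls and 23.2, 15.4, 15.9 and 18.3 CPM in the mutants. The groups did not overlap and K14J26 was the highest embryo. Its log2 fold change was 0.48 (SE 0.14, adjusted p = 0.0432). The call was kept without K14J26 or K14J28 and lost without any other single embryo (adjusted p 0.0718 to 0.101). Stretches of Gm20342 resemble 62 other genes at the same limits as above.

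Of the members that were lower, Gm26917 had the smallest p. It lies on chromosome 17 from 39843013 to 39846341 (plus strand), 616 bases before the ribosomal RNA-like Gm42418. Gm26917 had no RefSeq match. It was nevertheless left out, with the members that RefSeq gives as protein-coding or pseudogene, in an alternative given below. It had 48.3, 48.7, 48.8 and 48.6 CPM in the controls and 35.5, 31.6, 32.5 and 33.0 CPM in the mutants. The controls were nearly equal and every mutant was below them. The log2 fold change was -0.55 (SE 0.06, adjusted p = 0.00485), and the call held without any 1 embryo. Its neighbour Gm42418 did not move with it: 923, 831, 928 and 935 CPM in the controls lay inside the range of the mutants, which had 742, 643, 1179 and 959 CPM. The log2 fold change of Gm42418 was -0.04, with a 95% confidence interval from -0.41 to 0.34 and an adjusted p of 0.895. Per 1000 counts on Gm42418, Gm26917 had 52.0 to 58.6 counts in the controls and 27.6 to 49.2 in the mutants. How much ribosomal RNA passed into each library was not measured otherwise.

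C920006O11Rik (chromosome 9, 78175914 to 78178879, plus strand), of no known role, had 14.6, 13.7, 12.4 and 13.6 CPM in the controls and 10.3, 9.38, 8.66 and 9.74 CPM in the mutants. Each mutant was below each control, and the log2 fold change was -0.51 (SE 0.09, adjusted p = 0.0140). Without K14J29 the log2 fold change was -0.47 and the adjusted p 0.0521, and without each other embryo the call held. Gsta4, a glutathione transferase gene whose start lies 6860 bases away on the same strand, was lower as well, with a log2 fold change of -0.50 (SE 0.15, adjusted p = 0.0494).

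Fam120aos (chromosome 13, 48968287 to 48972031, plus strand) had 14.9, 13.1, 14.3 and 14.8 CPM in the controls and 12.4, 10.9, 11.4 and 9.97 CPM in the mutants. The highest mutant, K14J26, was below the lowest control, J5, and the log2 fold change was -0.35 (SE 0.10, adjusted p = 0.0376). The call was kept without K14J26 or K14J28 and lost without any other embryo (adjusted p 0.0591 to 0.0982). It was also lost with Xist as a covariate (log2 fold change -0.34, adjusted p = 0.102) and without the Xist-high mutants K14J28 and K14J29 (-0.36 and 0.0996). With no filter on low counts it was lost as well (-0.35 and 0.0564). The other 7 calls held in both fits that address Xist. Fam120aos starts 270 bases from Fam120a, an RNA-binding protein gene on the opposite strand. Fam120a had 528 CPM in the controls and 533 CPM in the mutants, with a log2 fold change of 0.01 (SE 0.06, adjusted p = 0.889).

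Mir17hg, the host of the miR-17 cluster, known for its part in cell proliferation and organ growth, had 22.2, 21.1, 20.3 and 20.3 CPM in the controls and 10.2, 19.4, 11.1 and 12.2 CPM in the mutants. Mutants K14J26, K14J29 and K14J30 had values well under every control, while K14J28 came within 1 CPM of the lowest control. The means were 21.0 ± 0.870 and 13.2 ± 4.16 CPM (SD, n = 4 each), the log2 fold change was -0.66 (SE 0.18) and the adjusted p 0.0411. Without K14J28 the log2 fold change was -0.91 and the adjusted p 0.00358. Without any other single embryo the call was lost (adjusted p 0.0508 to 0.113), and the log2 fold change without K14J26 was -0.55. The call was also lost with library size as the only scaling (log2 fold change -0.74, adjusted p = 0.0596). K14J28 was the embryo with the high osteoclast markers, and their part in its value was not tested.

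**Figure D3:**
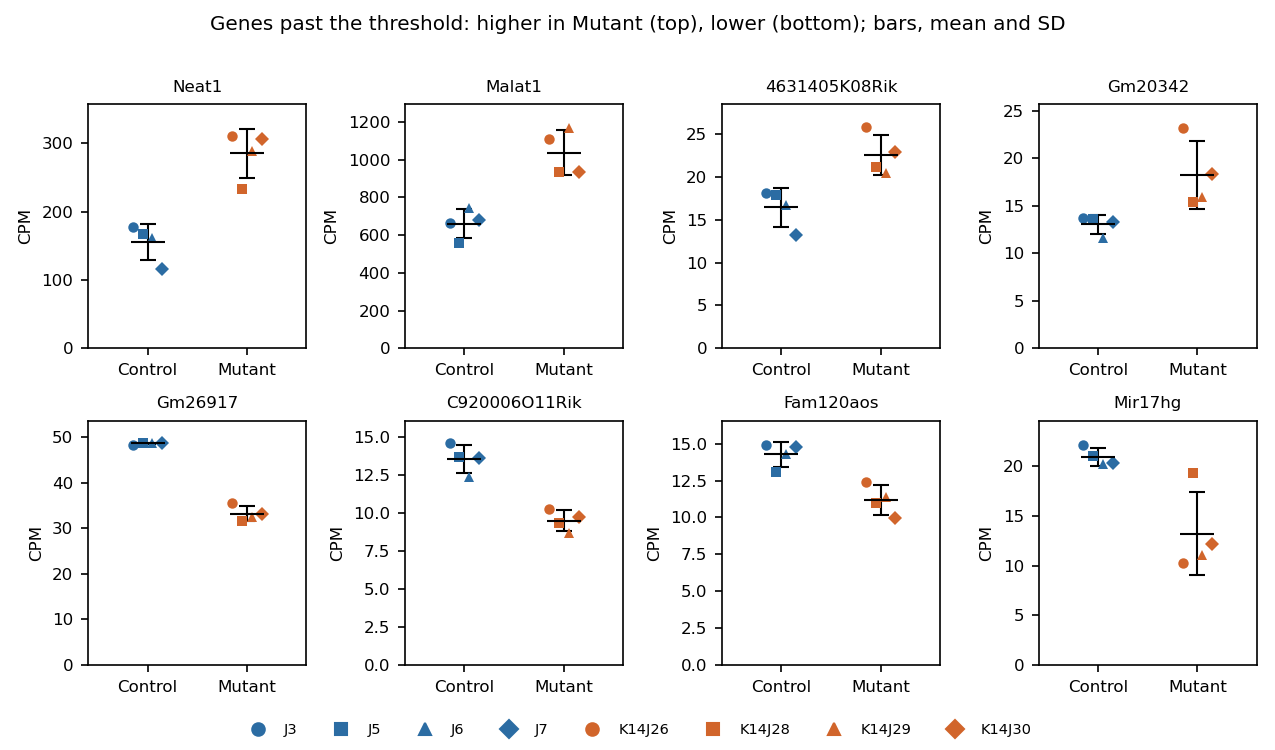
CPM in each embryo, from 0, for the 4 members higher in the mutants (top row) and the 4 lower (bottom row), with the mean and SD over 4 embryos per group as black bars. In each panel the groups do not overlap; for Mir17hg mutant K14J28, at 19.4 CPM, lies next to the controls.

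The carriers of small RNAs form 2 lists among the members, and 2900076A07Rik and Snhg20 are in both. Of the 6 microRNA hosts (Mir17hg, 4631405K08Rik, 6720427I07Rik, A430106G13Rik, 2900076A07Rik and Snhg20), 1 was higher and 1 lower, against 9.52% and 6.61% of all genes. Their median log2 fold change was -0.12. The let-7 host 6720427I07Rik had 15.1 to 16.9 CPM in the controls and 12.8 to 16.7 CPM in the mutants, with a log2 fold change of -0.10 and an adjusted p of 0.503. Of 7 microRNA processing genes tested, 1 was higher (9.52% of all genes were). This was Ago3, which loads mature microRNAs, with a log2 fold change of 0.54 (SE 0.11, adjusted p = 0.0175). Dgcr8 is listed at 0 in every embryo and was not tested.

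Of the 6 members with a snoRNA or a related scaRNA inside, 0 were called in either direction in edgeR's test, and the median log2 fold change was -0.06. DESeq2 called 0 as well, while of all genes edgeR called 16.1% and DESeq2 23.2%. At an unadjusted p under 0.05 edgeR had 1 of the 6 higher (2900076A07Rik) and 1 lower (Snhg20), against 19.1% and 15.7% of all genes. Snhg6, which holds Snord87, had 25.5 to 28.5 CPM in the controls and 21.9 to 26.6 CPM in the mutants, with a log2 fold change of -0.18 (SE 0.08, adjusted p = 0.147). Epb41l4aos, the smallest of these hosts, had 10.1 to 13 and 7.87 to 12.4 CPM, with a log2 fold change of -0.21 (SE 0.15, adjusted p = 0.338). Among 10 listed proteins of snoRNA particles and their assembly, 0 were higher and 1 was lower, the assembly factor Nufip1 (log2 fold change -0.30, SE 0.07, adjusted p = 0.0244), with a median of -0.33. Of all genes 9.52% were called higher and 6.61% lower. At an unadjusted p under 0.05, 0 of the 10 were higher and 7 lower in edgeR's test, against 19.1% and 15.7% of all genes. DESeq2 called 0 higher and 5 lower, against 13.1% and 10% of all genes. Spliced snoRNA host transcripts are known to be degraded by nonsense-mediated decay. Of its 10 listed factors 1 was higher, Upf2 (log2 fold change 0.35, SE 0.07, adjusted p = 0.0150), and 0 lower in edgeR's test. At an unadjusted p under 0.05, 2 of these factors were higher and 1 lower, against 19.1% and 15.7% of all genes. DESeq2 called 1 higher and 0 lower.

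1700020I14Rik, which RefSeq names Oip5os1 and which is also known as Cyrano, a conserved RNA that directs the decay of a microRNA, had 153, 162, 168 and 162 CPM in the controls and 201, 190, 184 and 168 CPM in the mutants. The groups did not overlap, though K14J30 and J6 were less than 1 CPM apart, and the log2 fold change of 0.21 (SE 0.07, 95% confidence interval 0.06 to 0.36) had an adjusted p of 0.0634. D930016D06Rik had 25.2 to 29 and 29.1 to 33.3 CPM (adjusted p = 0.0798), and 5430416N02Rik 14.8 to 16.8 and 10.7 to 14.5 CPM (adjusted p = 0.0534). Tmem250-ps had a log2 fold change of -0.06 (95% confidence interval -0.22 to 0.10), 1810058I24Rik one of -0.14 (-0.29 to 0.01) and Gm10076 one of -0.03 (-0.32 to 0.25). AI480526 had 38.7 to 54.0 CPM in the controls and 50.3 to 80.5 CPM in the mutants, overlapping, with a log2 fold change of 0.42 (SE 0.15, adjusted p = 0.0770). The remaining uncalled members ran from -0.27 (Snhg20) through 0.06 (Gm21781 and Snhg12), 0.17 (BC002059), 0.21 (1300002E11Rik) and 0.29 (5031425E22Rik) to 0.33 (2900076A07Rik) on the log2 scale, each with overlapping groups.

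Among the members, the mutants spread more widely than the controls, and the same was not counted over all genes. The coefficient of variation over 4 embryos was larger in the mutants for 22 of 29 members, with a median of 11.6% against 7.40%. It was largest for A430106G13Rik, the host of miR-181b, with 50.6% in the mutants and 6.27% in the controls. This gene had 25.3, 26.1, 28.8 and 25.3 CPM in the controls, and 42.1, 15.7, 21.4 and 17.3 CPM in the mutants. K14J26 was above every control and the other mutants were below every control, so the mean difference was small, with a log2 fold change of -0.13 and an adjusted p of 0.764. Without K14J26 the log2 fold change was -0.54 and the adjusted p 0.0137. Snhg18, the host of Snord123, came next, with 62.5 to 68.1 CPM in the controls and 123, 55.7, 84.8 and 69.5 CPM in the mutants, where K14J26 was again highest. Its log2 fold change was 0.36 (SE 0.20, adjusted p = 0.235), 0.12 without K14J26 and 0.51 without K14J28, where the adjusted p was 0.0496. Sema5a, a semaphorin gene that starts 148 bases from Snhg18 on the opposite strand, had a log2 fold change of 0.53 (SE 0.17, adjusted p = 0.0636).

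K14J26, which had the most enamel transcripts, was the highest or lowest mutant in 24 of 29 members, against 18 for K14J28, 7 for K14J29 and 9 for K14J30. In the mutants, 7 members were ordered as the enamel gene score (Klk4 and Mmp20 with the 3 genes above, as mean log2 CPM), 2 in the reverse order, Mir17hg and Snhg12, and 20 in neither. Such orders were not counted over all genes, so these counts describe the members alone. Of the 5 enamel genes 4 were called higher (9.52% of all genes were). The sum of the 5 was 557 to 3254 CPM in the controls and 3503 to 114369 CPM in the mutants. With that score as a covariate, 0 members were called higher and 2 lower in edgeR's test, Gm26917 and A430106G13Rik (2 and 6 at an unadjusted p under 0.05, against 11.6% and 9.45% of all genes), and of all genes 186 were called higher (1.09%) and 112 lower (0.654%), or 1.74% together. The log2 fold change of Mir17hg was then -0.18 (adjusted p = 0.612) and that of Gm20342 0.22, and 4631405K08Rik had 0.27. Neat1 had 0.63, Malat1 0.45, C920006O11Rik -0.51, Fam120aos -0.45, Gm26917 -0.64 and A430106G13Rik -1.13. The score was 4.73 to 6.87 in the controls and 6.94 to 11.8 in the mutants, so score and group cannot be fully told apart.

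**Figure D4:**
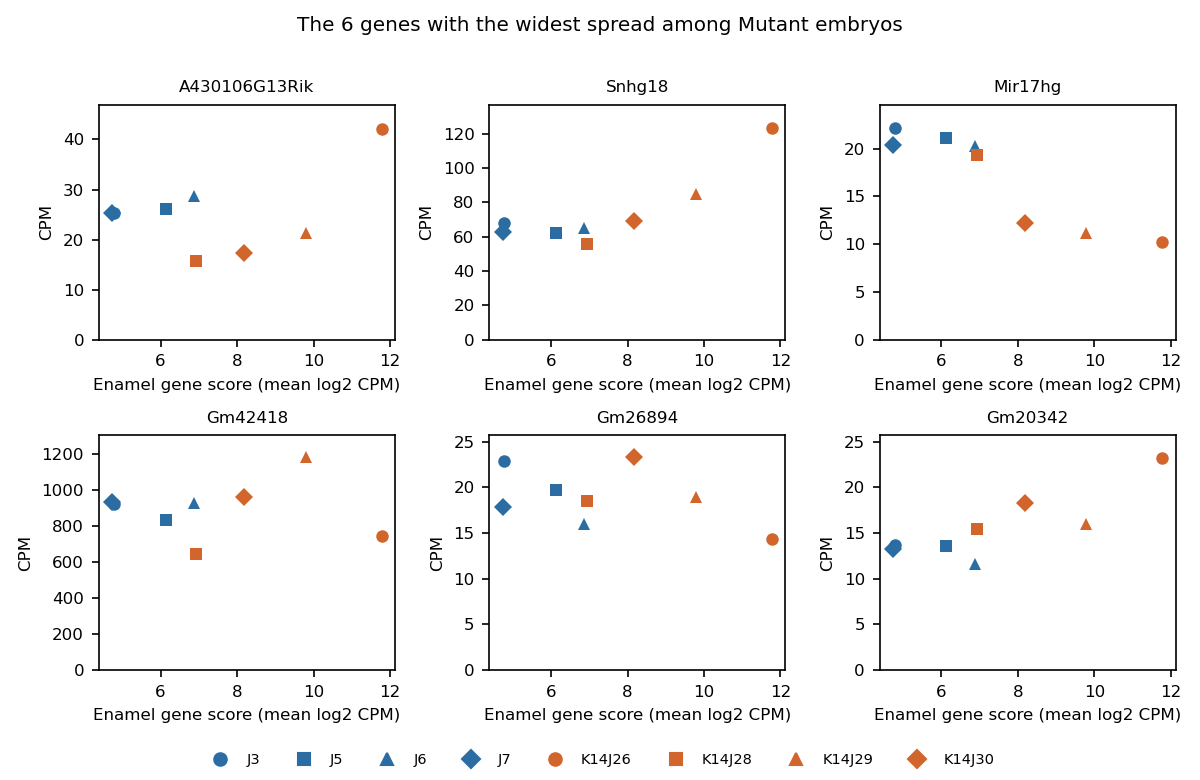
CPM in each embryo, from 0, against the enamel gene score (mean log2 CPM of 5 enamel genes), for the 6 members with the largest coefficient of variation in the mutants. Mutant K14J26, at the right with a score of 11.8, is the highest embryo for A430106G13Rik, Snhg18 and Gm20342 and the lowest for Mir17hg and Gm26894.

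The nearest protein-coding gene is given for 24 members. Where the 2 starts were within 5000 bases, 4 of 8 pairs had log2 fold changes of the same sign, and beyond it 6 of 16 did. In 0 of the 8 close pairs were both genes called, whether in the same or the opposite direction. The close pairs with the same sign were Snhg18 with Sema5a, 5031425E22Rik with Kmt2e, AI480526 with Setd1b and Gm20342 with Ino80d. Gm26894, which shares 361 exonic bases with Shh on the opposite strand, had 16 to 22.9 CPM in the controls and 14.4 to 23.4 CPM in the mutants (log2 fold change -0.02), while for Shh the log2 fold change was 0.37 (SE 0.15, adjusted p = 0.104). Camk1g, 139876 bases from the start of 4631405K08Rik, was lower, with a log2 fold change of -0.75 (SE 0.18, adjusted p = 0.0260).

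**Figure D5:**
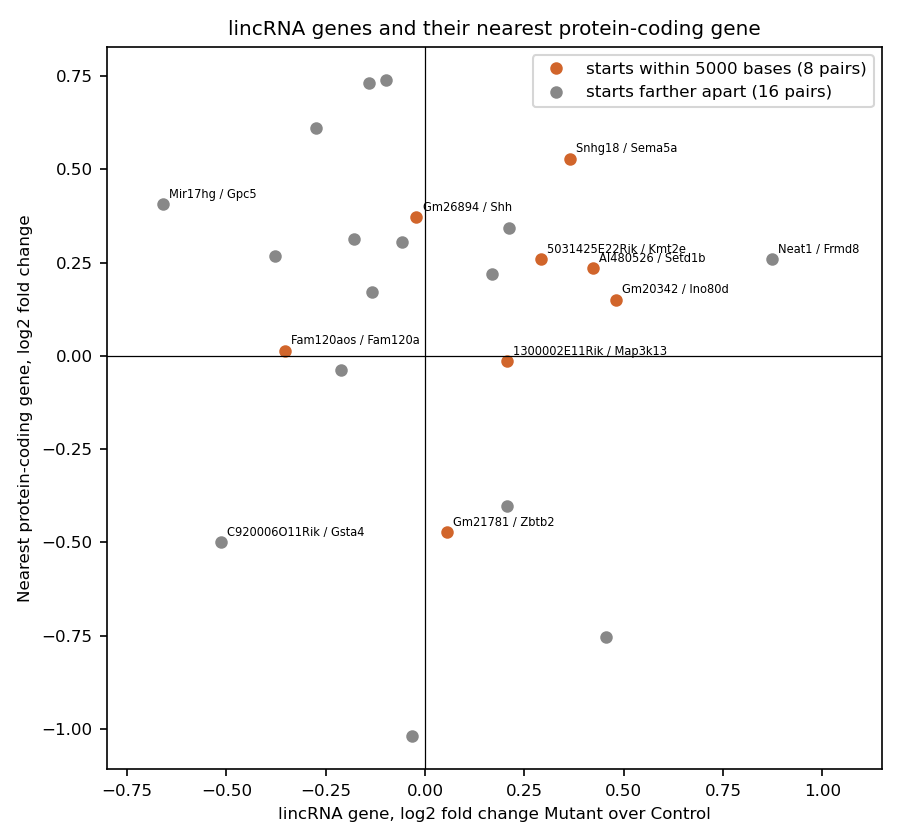
Log2 fold change of the nearest protein-coding gene against that of the member, mutant over control, for 24 pairs; orange marks 8 pairs whose starts lie within 5000 bases. Neat1 with Frmd8 lies at the upper right, C920006O11Rik with Gsta4 at the lower left.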

How the data were processed

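RNA-seq of molars from 4 control and 4 mutant embryos was used. Per the study's methods, libraries were made with a poly-A kit (TruSeq RNA) and sequenced as single reads. The reads were trimmed with Trimmomatic, aligned with STAR and counted. That the kit does not mark strand is read here from its name, as the methods do not state it. The methods name GenomicRanges and the submitters' processing notes name featureCounts, on GRCm38.p3; the treatment of strand and of reads with several matches is not given in the sources used here. The authors deposited 1 table per embryo of raw counts per Ensembl gene, without normalization.

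Symbols, biotypes and positions came from GENCODE M21 (42548 of 43629 identifiers matched), and other names and sequences from RefSeq tables on GRCm38.p6. The 17129 genes that reached 10 counts in 2 or more of the 4 embryos of a group were tested in edgeR 4.0.16 (R 4.3.3) by the quasi-likelihood method after TMM scaling. No covariate was used, and p-values were adjusted by Benjamini-Hochberg over these genes. A call is an adjusted p under 0.05. CPM use TMM-scaled library sizes, and 3 counts equal 0.0998 to 0.166 CPM. Overlaps were found with bedtools 2.31.1 and similar transcripts with blastn 2.17.0. P-values rest on the spread between 4 embryos per group; which embryos shared a litter is not given in the sources used here.

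The members and gene lists were chosen with earlier results of these data known. Full statistics were given for members called by the test, the 8 highest per length, and listed well-known RNAs (here Malat1, Neat1, Mir17hg and Oip5os1). Other members and non-members are named by level or where a result turns on them. Alternatives were other scalings, filters and tests, covariates, other membership limits and leaving out embryos. A few genes are not reported here and were left out of the counts over gene lists, the Malat1 and Neat1 window and neighbouring genes, but not out of the fits.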

Additional observations from a re-analysis of the deposited data

Results flagged for a closer look

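Each of the 29 members was examined in both groups of 4 embryos. Of these values, 3 stood farther from the other embryos of their group than Dixon's 95% limit for the gap as a share of the group's range. Chance exceeds this limit in about 1 of 20 groups, so some such values are to be met among so many groups. 5031425E22Rik had 27.3 CPM in mutant K14J26, against 19.1 to 20 CPM in the other mutants. Gm42418 had 831 CPM in control J5, against 923 to 935 CPM in the other controls. Snhg6 had 25.5 CPM in control J7, against 28.5 CPM in each other control.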

How the results depend on the processing

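Counting error alone would give the members a coefficient of variation of 0.711% to 6.22% in the controls, and each group has 4 embryos. With 1 embryo left out, 2 to 6 members were called higher and 1 to 5 lower, the median log2 fold change of the members was -0.028 to 0.074 (the latter without J3), and of all genes 250 to 2479 were higher and 170 to 1843 lower. Leaving out an embryo turned the sign of 5 uncalled members, Gm10076 (-0.11 to 0.022), Gm42418 (-0.21 to 0.082), Gm26894 (-0.14 to 0.086), Gm21781 (-0.083 to 0.12) and A430106G13Rik (-0.54 to 0.018, above 0 without K14J28). Without the muscle-rich controls J6 and J7, 0 members were called higher or lower, and of all genes 3 were higher and 4 lower; Gm42418 had a log2 fold change of 0.0024 and Jag1 one of -1.18 that no longer passed. DESeq2 called 6 members higher and 5 lower. With library size alone, 2 members were higher and 4 lower, of all genes 855 were higher and 1060 lower, and the members' median was -0.11. The calls of 4631405K08Rik (log2 fold change 0.35, adjusted p = 0.0800), Gm20342 (0.36 and 0.0640) and Mir17hg were then lost. Upper-quartile scaling gave 4 members higher and 5 lower and turned the balance over all genes, to 1363 higher and 1448 lower, against 1631 and 1133 with TMM. DESeq2 called 2244 genes higher and 1718 lower. Adding the enamel gene score as covariate, 0 members were higher, 2 lower, their median was -0.13, Snhg18 turned to -0.36, and 186 genes were higher and 112 lower. Under a limit of 500 counts (10 members), 2 were higher and 1 lower, with a median of 0.13; with a mean of 200 counts (43 members) the median was 0.056. Among 18 members without exon overlap 2 were higher and 4 lower. By the study's criteria, with the fold change read on the log2 scale, 2 were higher and 3 lower. Chosen after seeing the data, Gm42418 as a covariate left 2 members higher and 3 lower, and of all genes 1147 higher and 820 lower. The calls of 4631405K08Rik (log2 fold change 0.44, adjusted p = 0.0560), Gm20342 (0.47 and 0.0681) and Fam120aos (-0.35 and 0.0585) were then lost. Also chosen after seeing the data was leaving out the members that RefSeq gives as protein-coding or pseudogene, together with Gm26917, which had no RefSeq match. This left 4 members higher and 3 lower, with a median of 0.063, and Gm26917 was the called member taken out. Without Gm42418, the member with the highest CPM over all 8 embryos together, the members took 0.173% of the counts in the controls and 0.213% in the mutants. No paired analysis was possible because the groups share no replicate numbers.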

Other observations

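Gm26917 varied less among the controls than counting error alone would give, with a coefficient of variation of 0.375% against 3.06% from counting. This was so for 2 members in the controls (the other was Mir17hg, 4.15% against 4.67%) and for 0 in the mutants. Control J3 was the highest control in 19 of 29 members and J7 the lowest in 15.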
